A study of Mus musculus with 6 samples.

Results

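The transcripts of 7 matrix metalloproteinases (MMPs) and 3 tissue inhibitors of metalloproteinases (TIMPs) were followed in mouse eosinophils treated with extracellular vesicles (EVs) of TH2 cells. The genes were Mmp8, Mmp9, Mmp12, Mmp13, Mmp14, Mmp19, Mmp25, Timp1, Timp2 and Timp3, taken by name. All 10 were among the 16254 genes of the count table, and all 10 passed the filter on low counts that left 13498 genes for testing. The study compared 3 cultures of bone marrow-derived eosinophils treated for 24 h with activated TH2 cell EVs at 5e9 per ml (EV-treated) with 3 cultures given an equal volume of unconditioned media processed in parallel (sham-treated). Bulk polyadenylated RNA was sequenced. Both groups were grown from bone marrow of C57BL/6 mice 6 to 12 weeks old, first with FLT3 ligand and stem cell factor and then with IL-5. The labels call the cultures biological replicates but do not give the number of mice behind each, so the p-values measure the spread between these cultures.

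MMPs are zinc-dependent endopeptidases that cut collagens, elastin, other matrix proteins and many cell-surface and soluble proteins. They are made as inactive precursors whose propeptide must be removed, some of them by furin inside the cell and others by plasmin or other proteases outside it. TIMPs bind the active site of MMPs and block it, and the balance between the groups of proteins is a common way to describe tissue proteolysis. In airway inflammation, eosinophils, macrophages, neutrophils and stromal cells are all known sources of MMPs, so that the cell type behind a transcript matters for how a bulk culture is read.

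Library totals ran from 23697620 to 37874426 counts, and values below are counts scaled to a common library size by TMM. The eosinophil label held in both groups. All 12 eosinophil markers were detected, among them Prg2 and Epx, which encode the granule proteins major basic protein and eosinophil peroxidase. Epx had 129430 to 161558 normalized counts in the sham-treated cultures and 178207 to 212846 in the EV-treated cultures. Macrophage, neutrophil, mast cell or basophil, stromal and dendritic cell transcripts were also present, and their levels are given beside the genes they moved with. In bulk RNA, fewer cells of a type, a lower share of that type among all cells, and less RNA per cell cannot be told apart. The authors report that eosinophils given activated EVs survived better, with less apoptosis, than untreated ones. The part of eosinophil survival in the differences below was not tested. EV replicate 1 stood apart from the other EV-treated cultures in stromal transcripts, and calls that depend on it are given with and without it.

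The transcripts changed in both directions. Of the 10 genes, 3 were higher in the EV-treated cultures (Mmp13, Mmp25 and Timp2), 5 were lower (Mmp8, Mmp9, Mmp12, Mmp14 and Mmp19) and 2 did not pass the test (Timp1 and Timp3). The test was edgeR's quasi-likelihood test with Benjamini-Hochberg adjustment over all genes tested, and the threshold was an adjusted p under 0.01. By the same rule, 12.1% of all genes tested were higher in the EV-treated cultures and 11.6% were lower. These shares apply to the counts of every list below, including the marker lists. The count of 5 lower genes fell to 2 when EV replicate 3 was left out, since Mmp9, Mmp12 and Mmp19 then missed the threshold, with adjusted p-values of 0.0103, 0.0103 and 0.0134. Without EV replicate 1, 2 genes were higher and 6 lower. The values of the EV-treated cultures lay wholly above those of the sham-treated cultures for 3 of the genes and wholly below for 6, against 24.8% and 24.7% of all genes tested. Timp3 was the gene whose groups overlapped. The median absolute log2 fold change was 1.26 over the 10 genes and 0.30 over all genes tested, of which the upper 10% began at 1.55.

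**Figure D1:**
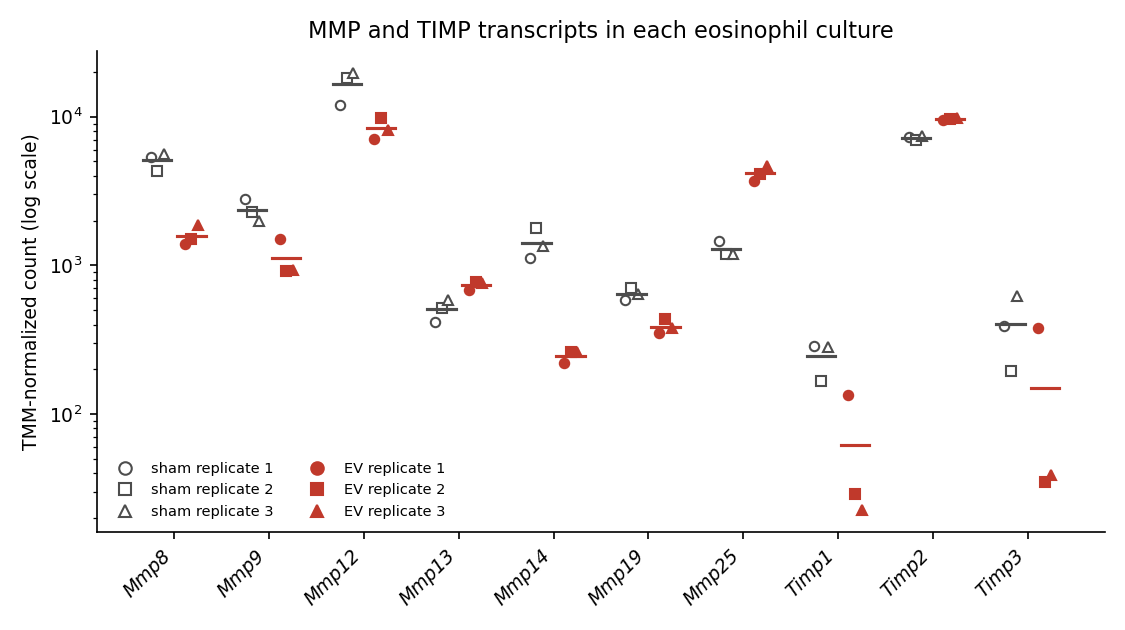
TMM-normalized counts of the 10 genes in each culture, on a log axis. Open grey symbols are the 3 sham-treated and filled red symbols the 3 EV-treated cultures, symbol shapes mark the replicate number, and bars are group means. EV replicate 1 stands above the other EV-treated cultures for Timp1 (134.9) and Timp3 (377.6), while Mmp14 and Mmp25 separate by group without overlap.

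Mmp8 and Mmp13 encode collagenases, which cut fibrillar collagen. Mmp8, known as neutrophil collagenase, had 5367, 4285 and 5593 normalized counts in the sham-treated cultures and 1392, 1514 and 1857 in the EV-treated cultures. Every EV-treated culture was lower than every sham-treated culture, with a 3.2-fold difference between the means (5082 ± 699 and 1587 ± 241, SD, n = 3 each). The log2 fold change was -1.68 (SE 0.126, edgeR adjusted p = 5.27e-06). Mmp13 moved the other way. It had 417, 514 and 584 normalized counts with sham treatment and 685, 775 and 757 with EVs, means of 505 ± 84.0 and 739 ± 47.4. The groups did not overlap, but the rise was 1.46-fold and near the threshold (log2 fold change 0.55, SE 0.136, edgeR adjusted p = 0.00987). It passed in 1 of the 6 fits that each left out one culture, and missed the threshold when libraries were scaled by their totals alone (log2 fold change 0.40, adjusted p = 0.0421).

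Neutrophil markers were divided. Of 11 neutrophil markers tested, S100a8, S100a9, Ltf, Camp and Cd177 were lower in the EV-treated cultures, Ly6g and Cxcr2 were higher, and 4 did not pass. Their summed level was 18066 to 20818 normalized counts with sham treatment and 18919 to 22478 with EVs. S100a8, which encodes a subunit of calprotectin, fell from 1996 ± 94.2 to 883 ± 114. Ly6g, a surface marker of mouse neutrophils, rose 6.29-fold to 3516 ± 137, and Cxcr2, which encodes a chemokine receptor, rose 3.66-fold to 3444 ± 24.8. Thus Mmp8 and Mmp9, described below, moved in the direction of S100a8, and Mmp25, also below, moved in that of Ly6g and Cxcr2. The part of neutrophil lineage RNA in these differences was not tested.

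Mmp8, Mmp12 and Mmp13 lie together on chromosome 9, in a cluster of 10 Mmp genes that spans 427 kb (GRCm38). Of these, 6 were in the count table. In the order of their start positions, Mmp13 (chr9:7272514-7283331) was higher with EVs, Mmp12 (chr9:7344381-7369499) was lower, Mmp3 and Mmp10 had at most 2 and 10 counts in any library, and Mmp8 (chr9:7558456-7568485) and its neighbour Mmp27 (chr9:7571396-7581885) were both lower. All 4 are on the + strand. Mmp27, a stromelysin-like protease outside the 10 genes, had 1702, 1455 and 1843 normalized counts with sham treatment and 491, 605 and 590 with EVs. Its log2 fold change was -1.57 (SE 0.116, edgeR adjusted p = 4.88e-06), beside -1.68 for Mmp8, whereas Mmp13, at one end of the cluster, went the other way.

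The 120 bases before the RefSeq transcription start (GRCm38.p6) are shown for these 4 neighbours, which differed in direction, and for Mmp14 and Mmp25. With all cultures in the fit, Mmp14 had the largest fall and Mmp25 the largest rise of the 10 genes. The sequences run 5′ to 3′ on the gene's own strand, and capitals mark letters that match an AP-1 or TATA motif. Of the 2 starts of Mmp12, only the second, which has a match, is shown.
Mmp13, chr9:7272394-7272513, + strand: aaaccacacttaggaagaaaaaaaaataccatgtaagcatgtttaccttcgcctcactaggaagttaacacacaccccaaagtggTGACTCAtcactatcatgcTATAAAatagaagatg
Mmp12, second start, chr9:7347254-7347373, + strand: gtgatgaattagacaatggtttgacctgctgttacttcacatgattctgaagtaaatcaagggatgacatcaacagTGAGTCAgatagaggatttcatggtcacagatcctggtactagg
Mmp8, chr9:7558309-7558428, + strand: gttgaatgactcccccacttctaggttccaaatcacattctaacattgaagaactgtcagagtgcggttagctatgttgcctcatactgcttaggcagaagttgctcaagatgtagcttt
Mmp27, chr9:7571276-7571395, + strand: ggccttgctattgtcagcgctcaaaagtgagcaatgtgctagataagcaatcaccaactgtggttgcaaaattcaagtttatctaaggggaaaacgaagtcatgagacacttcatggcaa
Mmp14, chr14:54431478-54431597, + strand: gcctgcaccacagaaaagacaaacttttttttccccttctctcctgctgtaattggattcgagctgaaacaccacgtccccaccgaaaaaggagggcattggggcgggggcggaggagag
Mmp25, chr17:23645270-23645389, - strand: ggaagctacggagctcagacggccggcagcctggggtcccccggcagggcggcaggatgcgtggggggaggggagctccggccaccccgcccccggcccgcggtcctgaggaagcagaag

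RefSeq promoter windows were at hand for 8 of the 10 genes, as 9 windows since Mmp12 had 2 starts. In the 250 bases before each start, on both strands, 3 letter patterns were searched. The AP-1 pattern TGANTCA was present for Mmp13, 35 bases before the start, and for the second start of Mmp12, 44 bases before it. It was present in 6.75% of all 32851 mouse windows. The TATA pattern TATAAA was present for Mmp13 alone among the genes with a window, 16 bases before the start, and in 12.4% of all windows. The STAT pattern TTCNNNGAA was in no window of these genes and in 7.02% of all windows. The patterns do not overlap in the windows printed. The AP-1 letters thus stand before a gene that was higher (Mmp13) and before the second start of one that was lower (Mmp12). The first start of Mmp12 had no match, and which start these cells use was not examined. A match is a match of letters, not a site shown to be bound.

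Mmp9 encodes gelatinase B, which cuts denatured collagen and basement membrane collagen. It had 2784, 2302 and 1994 normalized counts in the sham-treated cultures and 1507, 915 and 936 in the EV-treated cultures, where EV replicate 1 was the highest. The means, 2360 ± 398 and 1119 ± 336, differed 2.11-fold without overlap (log2 fold change -1.08, SE 0.189, edgeR adjusted p = 0.00141). Mmp12 encodes macrophage elastase. It had 11906, 18278 and 19805 normalized counts with sham treatment and 7096, 9813 and 8139 with EVs. Sham replicate 1 was the lowest of its group, yet above all EV-treated cultures. The means were 16663 ± 4190 and 8349 ± 1371 (log2 fold change -0.996, SE 0.175, edgeR adjusted p = 0.00145). Leaving out EV replicate 3 left both genes just short of the threshold, as given above. Mmp12 shares 6.59% of its 31-base transcript words with other genes, and more with Mmp1b than with any other single gene. Mmp1b overlaps Mmp12 on the opposite strand, over 157 exonic bases (2.17%).

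Mmp14 and Mmp25 encode membrane-type MMPs, which act at the cell surface. With all cultures in the fit, they had the largest fall and the largest rise of the 10 genes. Without EV replicate 1, Timp1 (log2 fold change -3.23) and Timp3 (-3.43) fell more than Mmp14 (-2.44). Mmp14 (MT1-MMP) is a transmembrane protease that activates pro-MMP2. It had 1124, 1793 and 1349 normalized counts with sham treatment and 221, 259.7 and 259 with EVs. Its means of 1422 ± 340 and 247 ± 22.4 differed 5.77-fold (log2 fold change -2.52, SE 0.170, edgeR adjusted p = 2.7e-06). Mmp25 (MT6-MMP, leukolysin) is held at the membrane by a GPI anchor and is known from leukocytes. It had 1457, 1188 and 1191 normalized counts with sham treatment and 3708, 4118 and 4635 with EVs, so that the lowest EV-treated culture was well above the highest sham-treated one. The rise was 3.25-fold, from 1278 ± 155 to 4154 ± 464 (log2 fold change 1.70, SE 0.107, edgeR adjusted p = 1.69e-06). Both genes passed the threshold in all 6 fits that left out one culture.

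Mmp19 encodes a secreted MMP that cuts basement membrane proteins. It had 585, 708 and 639 normalized counts with sham treatment and 349.7, 435 and 377 with EVs, again without overlap. Its means were 644 ± 61.9 and 387 ± 43.4, a 1.66-fold difference (log2 fold change -0.73, SE 0.132, edgeR adjusted p = 0.00170), which missed the threshold without EV replicate 1 (adjusted p = 0.0104) and without EV replicate 3. Of the exonic bases of Mmp19, 789 (22.3%) lie opposite exons of Tmem198b. The strand setting of the counting was not given in the sources used here, so reads of the overlap cannot be told apart. Tmem198b itself had 214, 339.5 and 193 normalized counts with sham treatment and 193, 160.3 and 202 with EVs (edgeR adjusted p = 0.193).

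Mmp12, Mmp14 and Mmp19 were lower together with most macrophage markers. Of 12 markers tested, 9 were lower in the EV-treated cultures, 1 was higher (Adgre1, log2 fold change 0.62) and 2 did not pass (Mrc1 and Fcgr1). Their summed level was 57034, 82586 and 76847 normalized counts in the sham-treated cultures and 41548, 47422 and 46556 in the EV-treated cultures. Adgre1, the marker that rose, held 21206, 21095 and 21678 of these counts with sham treatment. With EVs it held 32085, 33532 and 32675, most of each sum, so the sums understate the fall of the other markers. Sham replicate 1 had the lowest macrophage sum of its group, as it had the lowest Mmp12, Mmp14 and Mmp19. Among the EV-treated cultures, EV replicate 1 had the lowest sum and the lowest value of the same 3 genes. The complement gene C1qb stood at -3.34, -2.24 and -2.15 log2 units from the sham mean in EV replicates 1, 2 and 3, and Csf1r, which encodes the receptor for macrophage colony-stimulating factor, at -1.49, -1.22 and -1.23. On the same scale, Mmp14 stood at -2.68, -2.45 and -2.45 and Mmp12 at -1.23, -0.76 and -1.03. Mrc1, the mannose receptor gene, stood at -0.13, 0.51 and 0.52, so the markers themselves differed widely. No macrophage marker was at 0 in all libraries, and the part of macrophage RNA in these differences was not tested.

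**Figure D2:**
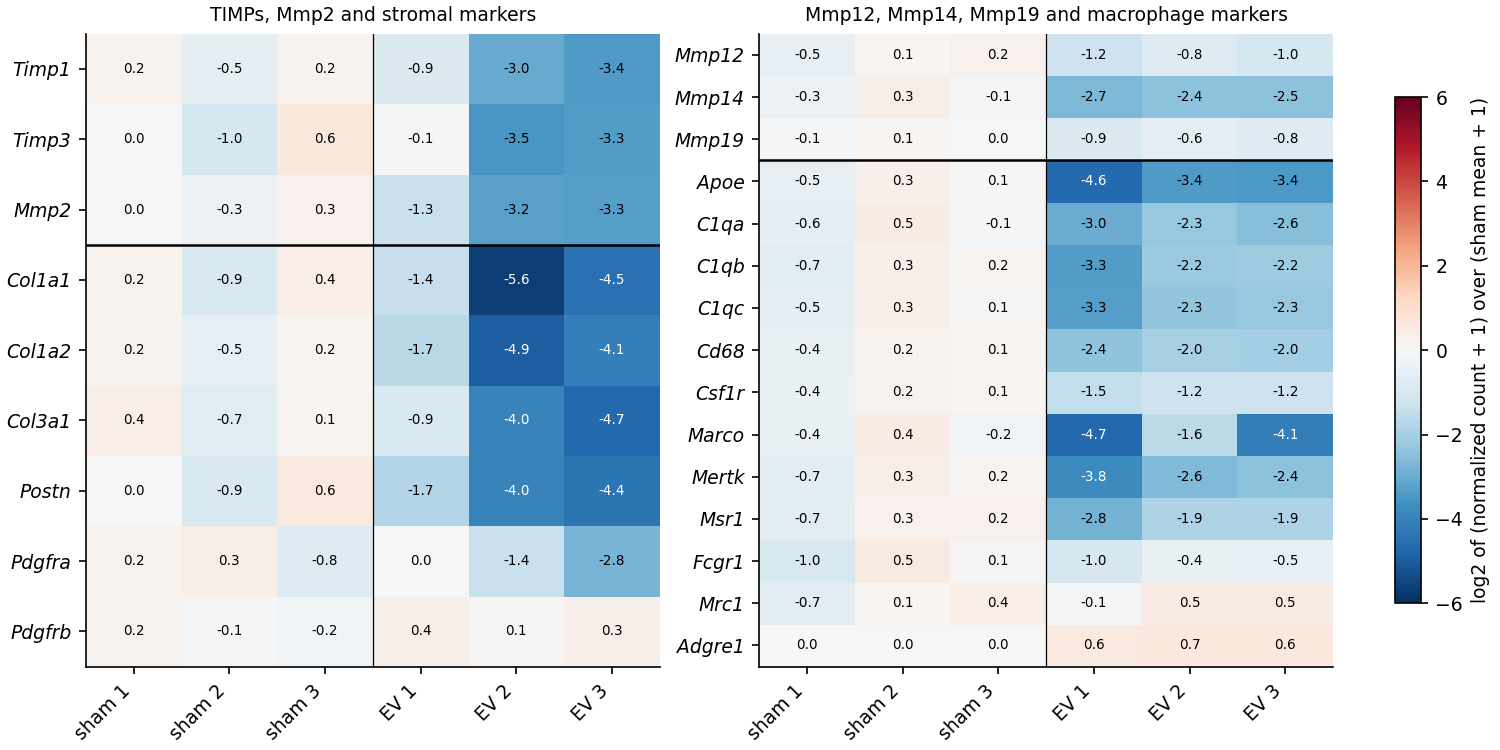
Level of each gene in each culture as log2 of the normalized count plus 1 over the sham mean plus 1, with red above and blue below the sham mean. The left panel sets Timp1, Timp3 and Mmp2 above stromal markers and the right panel sets Mmp12, Mmp14 and Mmp19 above macrophage markers. EV replicate 1 lies nearest the sham-treated cultures for Timp1 (-0.86) and Timp3 (-0.10), as it does for the collagen genes.

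The 3 inhibitors differed from one another. Timp2, which blocks most MMPs and also takes part in the activation of pro-MMP2 by MT1-MMP, had 7256, 6921 and 7431 normalized counts with sham treatment and 9502, 9596 and 9866 with EVs. The rise was only 1.34-fold (7203 ± 259 and 9655 ± 189) but large against the spread between cultures (log2 fold change 0.42, SE 0.0547, edgeR adjusted p = 0.000199), and it passed in all 6 fits that left out one culture. Timp1, which binds pro-MMP9, had 287, 168 and 281 normalized counts with sham treatment and 135, 29.1 and 22.6 with EVs. The groups did not overlap, yet the spread was wide and the log2 fold change of -1.996 (SE 0.577) did not pass (edgeR adjusted p = 0.0219). Timp3, which binds the matrix and also inhibits ADAM17, had 391.9, 195 and 626 normalized counts with sham treatment and 378, 35.1 and 39.2 with EVs. Its groups overlapped, since EV replicate 1 lay within the sham range (log2 fold change -1.44, SE 0.786, edgeR adjusted p = 0.190). Without EV replicate 1, both genes passed, at log2 fold changes of -3.23 for Timp1 (adjusted p = 0.000116) and -3.43 for Timp3 (adjusted p = 0.000441). Of the exonic bases of Timp3, 1733 (21.3%) lie opposite exons of Syn3, which had at most 12 counts in any library.

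EV replicate 1 also stood apart in stromal transcripts. The 9 fibroblast and stromal markers summed to 21428, 11573 and 22154 normalized counts in the sham-treated cultures and to 7818, 1756 and 2322 in the EV-treated cultures. The lowest sham-treated culture was replicate 2 and the highest EV-treated culture was replicate 1, as for Timp1 and Timp3. Of the 6 stromal markers tested, 2 were lower in the EV-treated cultures (Col1a2 and Postn) and 4 did not pass. Among those 4, Col1a1, Col3a1 and Pdgfra had lower means with EVs, but Pdgfrb did not fall (log2 fold change 0.24). Pdgfrb had 1405, 1120 and 1078 normalized counts with sham treatment and 1544, 1249 and 1470 with EVs. It held most of the sums of EV replicates 2 and 3, so these sums understate the fall of the collagen genes and Postn. Thy1 had at most 3 counts in every library. Mmp2, which encodes gelatinase A and was outside the 10 genes, had 295, 228 and 349.9 normalized counts with sham treatment and 116, 30.0 and 28.7 with EVs (log2 fold change -2.34, SE 0.483, edgeR adjusted p = 0.00388). The call of Mmp2 was lost without sham replicate 3, EV replicate 2 or EV replicate 3, and without EV replicate 1 its log2 fold change was -3.30 (adjusted p = 3.38e-05). The part of stromal RNA in Timp1, Timp3 and Mmp2 was not tested.

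To set the genes against one another, normalized counts were divided by the length in kilobases of the exons of their protein-coding transcripts. This length was 4036 bases for Mmp12 and 4942 for Timp3. The overlap shares given above were instead taken over the exons of all transcripts. Exons of all transcripts are longer for several genes, Mmp12, Mmp14, Mmp25 and Timp3 among them, and would lower their levels. The order of genes, the sums and the ratios below thus depend on this length, and no other length was tried. On this per-kilobase scale, Mmp12 had the highest level in sham-treated cultures (4129 ± 1038), above Mmp8 (2096 ± 288) and Timp2 (1849 ± 66.5), whose ranges of single cultures overlapped. Mmp9 followed at 702 ± 118. Mmp14 (324 ± 77.5), Mmp25 (282 ± 34.1) and Timp1 (276 ± 75.6) had overlapping ranges, Mmp13 (189 ± 31.4) and Mmp19 (187 ± 17.9) also overlapped each other and the lowest Timp1 culture, and Timp3 was lowest at 81.8 ± 43.6. In the EV-treated cultures the order of levels was led by Timp2 (2478 ± 48.5) and Mmp12 (2069 ± 340), whose ranges met without overlap (2439 and 2431). Mmp25 came next at 917 ± 103, above Mmp8 at 655 ± 99.4, and the lowest Mmp25 culture (819) exceeded the highest Mmp8 culture (766). Mmp9 (333 ± 99.9) and Mmp13 (277 ± 17.7) overlapped, Mmp19 stood at 112 ± 12.6, and Timp1 (70.1 ± 71.0), Mmp14 (56.2 ± 5.10) and Timp3 (30.5 ± 39.8) had the lowest means. EV replicate 1 broke this order, with Timp1 at 152, above every Mmp19 value, and Timp3 at 76.4, above every Mmp14 value.

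The per-kilobase levels of the 7 MMPs summed to 6894, 8048 and 8780 in the sham-treated cultures and 4007, 4712 and 4536 in the EV-treated cultures. The groups did not overlap (7908 ± 951 and 4418 ± 367). The 3 TIMPs summed to 2265, 2005 and 2350 with sham treatment and 2667, 2503 and 2566 with EVs. The ratio of the MMP sum to the TIMP sum was thus 3.04, 4.01 and 3.74 with sham treatment and 1.5, 1.88 and 1.77 with EVs. It remained lower with EVs when Mmp12 was taken out of the sum (1.71 ± 0.0582 and 0.912 ± 0.0693). No test is given for the sums or ratios, because the genes in them were chosen with results of these data known. Within the MMP sum, Mmp25 took 3.64% ± 0.899 with sham treatment and 20.8% ± 1.66 with EVs, while Mmp8 took 26.8% ± 5.09 and 14.8% ± 1.87. Timp2 made up 84.0% ± 4.03 of the TIMP sum with sham treatment and 96.2% ± 4.11 with EVs. These are transcript levels, and protein and enzyme activity were not measured here.

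**Figure D3:**
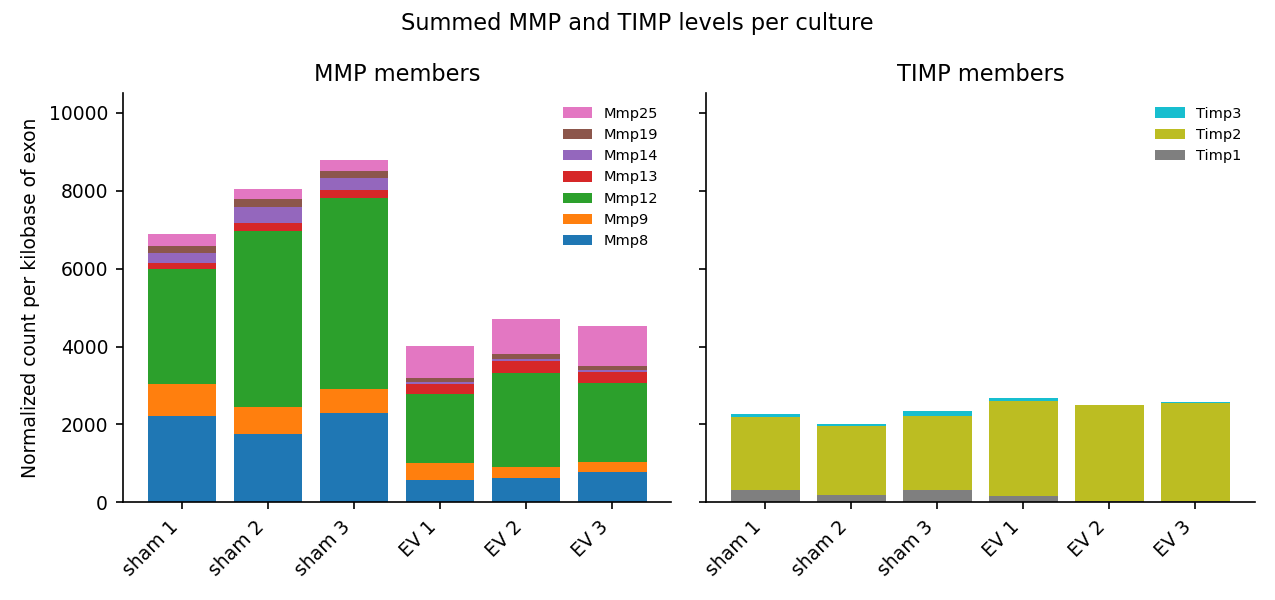
Stacked bars of the normalized count per kilobase of exon of protein-coding transcripts in each culture. The 7 MMPs are on the left and the 3 TIMPs on the right, on a common axis that starts at 0. The MMP bars are 6894 to 8780 high in the sham-treated and 4007 to 4712 in the EV-treated cultures, with Mmp12 (green) the tallest segment in all and the Mmp25 segment (pink) taller with EVs, while Timp2 (olive) fills most of every TIMP bar.

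Other genes of the family were few. Of 17 further Mmp and Timp genes listed, 10 were in the count table and 3 passed the filter. Mmp2 and Mmp27 were lower with EVs, as described above, and Mmp28 did not pass (log2 fold change 0.95, edgeR adjusted p = 0.311). Mmp3 had at most 2 counts in any library. Mmp1a, Mmp1b, Mmp7, Mmp20, Mmp21, Mmp24 and Timp4 were not analysed here.

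The ADAM and ADAMTS proteases, relatives of the MMPs that shed cell-surface proteins or cut proteoglycans, were called about as often as genes at large. Of 19 tested, 3 were higher with EVs, 2 were lower and 14 did not pass, beside 12.1% higher and 11.6% lower over all genes tested, and their median log2 fold change was -0.43 against -0.01 over all genes. Adamtsl4, an ADAMTS-like matrix protein without protease activity, rose from 201 ± 36.1 to 789 ± 60.3 normalized counts (log2 fold change 1.97, edgeR adjusted p = 7.14e-06). Adam19 rose from 8041 ± 959 to 15982 ± 703 (log2 fold change 0.99, adjusted p = 1.16e-05). Adam8, an ADAM of eosinophils and other leukocytes, had 53103 ± 416 and 63887 ± 2848 (log2 fold change 0.27, adjusted p = 0.00198), a call lost without TMM and without EV replicate 3. The lower genes were Adamts10 (log2 fold change -0.43, not called without EV replicate 1 or 2) and Adam22, which was scarce. The sheddases Adam10 and Adam17, the latter a target of Timp3, had log2 fold changes of 0.07 and -0.22 (adjusted p = 0.447 and 0.112).

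Genes whose products activate MMPs moved in both directions. Of 10 tested, 3 were higher, 2 were lower and 5 did not pass, beside 12.1% higher and 11.6% lower over all genes tested. Furin, the convertase that removes the propeptide of membrane-type MMPs such as those encoded by Mmp14 and Mmp25, had 16102, 14590 and 14620 normalized counts with sham treatment and 33156, 33200 and 34255 with EVs. This was a 2.22-fold rise with little spread (log2 fold change 1.15, SE 0.0565, edgeR adjusted p = 3.69e-07). Plau, which encodes urokinase, the activator of plasminogen, fell from 1079 ± 337 to 235 ± 31.8 (log2 fold change -2.19, SE 0.227, adjusted p = 4.4e-05). Its receptor Plaur rose from 4798 ± 615 to 8106 ± 563 (log2 fold change 0.76, adjusted p = 0.00016), so the enzyme and its receptor changed in opposite directions. St14, which encodes matriptase, rose by 0.34, a call lost in 4 of the 6 fits that left out one culture and without TMM (0.196, adjusted p = 0.0465), and the plasminogen receptor Plgrkt fell by 0.43 on the log2 scale. Tpsb2 had at most 3 counts in every library.

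Genes for proteins that restrain, dock or clear MMPs were also divided, with 2 of 12 higher, 5 lower and 5 that did not pass. Over all genes tested, 12.1% were higher and 11.6% lower. Lrp1, which encodes the endocytic receptor that takes up MMP9, MMP13 and their complexes with TIMPs, had 19300, 33553 and 30958 normalized counts with sham treatment and 1964, 2596 and 2793 with EVs. The means differed 11.4-fold (27937 ± 7592 and 2451 ± 433, log2 fold change -3.51, edgeR adjusted p = 1.15e-06), and sham replicate 1 was again the lowest sham-treated culture, as for the macrophage markers. Sdc1 (syndecan-1) fell by 2.61 on the log2 scale. Lcn2, which encodes the lipocalin that forms a complex with MMP9 in neutrophils, fell from 1277 ± 157 to 350.1 ± 8.31, and Thbs1 (thrombospondin-1) from 148225 ± 11749 to 67682 ± 4484. The integrin subunits Itgam and Itgb2, which together form a docking receptor for pro-MMP9 on leukocytes, rose by 0.34 and 0.36 on the log2 scale. Cd44, a cell-surface anchor of MMP9, differed by 0.02 on the log2 scale (edgeR adjusted p = 0.803). Cd63, which encodes a tetraspanin that binds TIMP1, was also lower, by a small margin (log2 fold change -0.32, adjusted p = 0.000776). Reck, Bsg, Itgb1 and Thbs2 did not pass, with log2 fold changes of 0.69, 0.20, -0.08 and -3.11.

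Among 16 substrates tested, 1 was higher with EVs, 7 were lower and 8 did not pass, beside 12.1% higher and 11.6% lower over all genes. Their median log2 fold change was -2.43, against -0.01 over all genes tested. Lama5, which encodes the laminin alpha-5 chain of basement membranes, had 259, 264 and 247 normalized counts with sham treatment and 12712, 12463 and 12573 with EVs. This 49.1-fold rise (log2 fold change 5.62, SE 0.0685, edgeR adjusted p = 4.1e-11) was the only call in its direction on the list. Col4a1 and Col4a2, which encode basement membrane collagen, fell by 2.99 and 3.44 on the log2 scale, and the fibrillar collagen gene Col1a2 fell by 2.91. Spp1, which encodes osteopontin, fell by 1.49, and Bgn, which encodes biglycan, fell by 2.56. Col1a1, Col1a2, Col3a1, Dcn and Lum are on both the substrate and the stromal lists, and EV replicate 1 had the highest Col1a2 of the EV-treated cultures (2188, against 227 and 403). The calls of Col1a2, Col4a1 and Bgn were each lost in 5 of the 6 fits that left out one culture, all but the fit without EV replicate 1. In that fit their log2 fold changes were -4.46, -4.50 and -3.93, and that of Col4a2 was -4.38. Those of Col1a2 and Bgn were also lost with DESeq2 (adjusted p = 0.0120 and 0.0123).

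**Figure D4:**
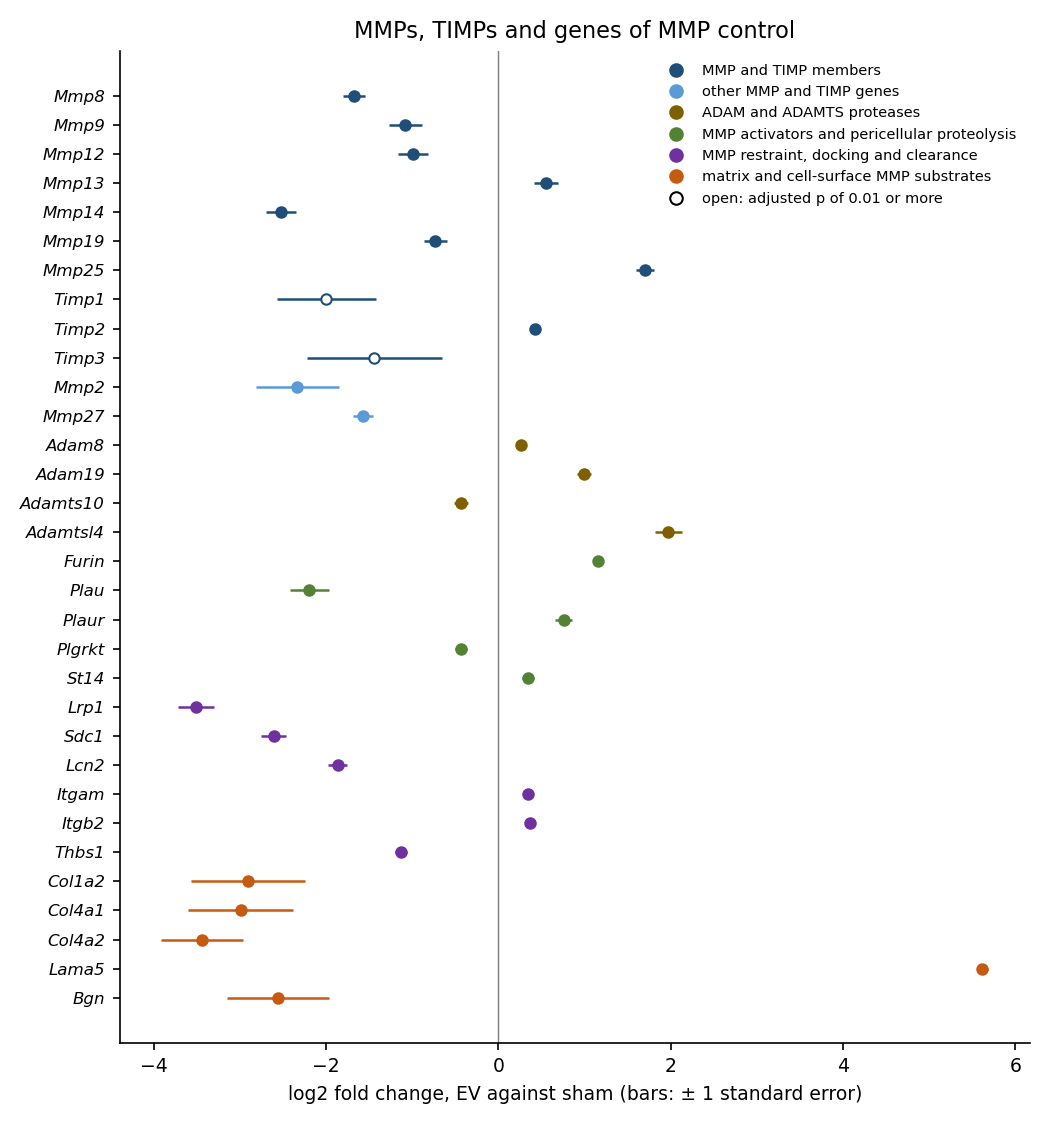
Log2 fold change of EV-treated against sham-treated cultures for the 10 MMP and TIMP genes and the named genes of the 5 lists, with bars of 1 standard error. Filled points passed an adjusted p under 0.01 and open points did not. Mmp25 (1.70) and Furin (1.15) lie to the right, Mmp14 (-2.52), Plau (-2.19) and Lrp1 (-3.51) to the left, Lama5 (5.62) lies alone at the far right, and the bars of Timp1 and Timp3 are the widest of the 10 genes.

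The other marker lists had these values. Of 12 eosinophil markers, 8 were higher with EVs, none was lower and 4 did not pass, and their sum was 942207 to 1186850 normalized counts with sham treatment and 1344101 to 1501585 with EVs. Of 6 mast cell and basophil markers tested, 4 were higher and 2 did not pass, with sums of 4101 to 5233 and 9891 to 11712. Dendritic cell markers gave no call among 5 tested, with sums of 4949 to 5601 and 5208 to 6377. T cell markers summed to 336 to 837 normalized counts with sham treatment and 59.9 to 122 with EVs, and of 2 tested, 1 was lower. That gene was Cd28, with 292, 707 and 679 normalized counts with sham treatment and 27.0, 47.1 and 53.1 with EVs. It held most of each sham-treated sum, and the other gene tested, Cd3d, did not fall (log2 fold change 0.35). Mmp25, Mmp13 and Timp2 rose together with the eosinophil and the mast cell and basophil sums, and Mmp25 also with the neutrophil markers Ly6g and Cxcr2. The part of any of these in the rises was not tested.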

How the data were processed

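The labels describe poly(A)-selected RNA of 6 cultures. Per the labels and methods, the authors checked reads with FastQC, trimmed them with Cutadapt and quantified them with Salmon; the submitters' processing notes name mm10. Versions, annotation and strand setting are not given in the sources used here. The authors deposited estimated counts, normalized counts (a signal: the rounded count plus 1 over a DESeq2 size factor) and a table of their own comparison (log2 fold changes, p-values, means), which was not used. The genes and lists were chosen with earlier results of these data known.

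Rounded estimated counts went into edgeR 4.0.16 (R 4.3.3) with filterByExpr, TMM scaling and the quasi-likelihood test on treatment, with Benjamini-Hochberg adjustment over 13498 genes and a threshold of 0.01. Normalized counts are rounded counts over the TMM-scaled library size relative to its geometric mean. Standard errors are the absolute log2 fold change over the square root of F. Totals of 23697620 to 37874426 make the spread between cultures, not counting error, the main limit except for scarce genes. Scripts were tested on simulated data. Named were all 10 genes and, per list, up to 4 called genes in each direction with the largest change and a mean above 100, plus genes with at most 3 counts everywhere. Other genes given (Mmp10, Mmp28, Adam10, Adam17, Adam22, Cd44, Cd63, Reck, Bsg, Itgb1, Thbs2, Spp1, single markers, and overlapping Tmem198b and Syn3) were added after their values were seen. One further gene was taken off the restraint list and is not reported here. Lengths, positions, overlaps and 31-base words came from GENCODE vM21 (GRCm38, the build also called mm10), promoter sequences from RefSeq (GRCm38.p6). Alternatives were DESeq2 1.42.0, no TMM, no filter, a replicate block, limma 3.58.1 (on the deposited normalized counts with 1 added, log2 scale), other thresholds, and omission of each culture in turn.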

Additional observations from a re-analysis of the deposited data

How the results depend on the processing

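No direction of the 10 genes turned under any alternative. Mmp8, Mmp14, Mmp25 and Timp2 passed under every alternative that kept the threshold. Leaving out one culture at a time gave log2 fold changes of -1.34 to -0.94 for Mmp9, -1.18 to -0.84 for Mmp12, 0.44 to 0.68 for Mmp13, -0.82 to -0.66 for Mmp19, -3.23 to -1.59 for Timp1 and -3.43 to -0.96 for Timp3; 2 to 6 of the 10 genes, 10 to 23 list genes and 1018 to 1698 of all genes were lower, and 1071 to 1833 of all genes were higher, in fits with fewer samples. The lowest counts came without EV replicate 3 (1018, 1071 and 2) and, for list genes, without EV replicate 2 (10). Timp1 passed with DESeq2 (-1.98, adjusted p = 0.000907) and limma (-2.36, adjusted p = 0.00609). Without TMM, Mmp13 did not pass (0.40), and all genes gave 1036 higher and 2342 lower calls (30.7% higher, against 50.9% with TMM), a shift of -0.15 in the median. An adjusted p under 0.05 gave 2362 higher and 2478 lower calls over all genes. A further limit of 1 on the absolute log2 fold change left 1 gene higher (Mmp25) and 3 lower (Mmp8, Mmp9 and Mmp14) of the 10. It left 3 list genes higher and 15 lower, and 419 higher and 857 lower of all genes.

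Replicate numbers were not taken as pairing, since the correlations of same-numbered deviations were 0.106, 0.083 and 0.042; each culture correlated best with its own number, a hint from the data. With the replicate block, 3 of the 10 genes were higher and 7 lower, with Timp1 at -2.33 and Timp3 at -2.06 (adjusted p = 0.000109 and 0.00334), and all genes gave 1794 higher and 1781 lower calls.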
